A study of Homo sapiens with 6 samples.

Results

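The guide strands of the let-7 family, hsa-let-7a-5p to hsa-let-7g-5p, hsa-let-7i-5p and hsa-miR-98-5p, were described in BEAS-2B, an established immortalised line of human bronchial epithelial cells. Members were taken by name from the rows of known mature miRNAs. All 9 of 9 names were found in every library, among 1727 known miRNA names in all, and 0 rows joined a member with another name. Counts of small RNAs were deposited for 3 libraries of cells given pcDNA-PRMT1, a plasmid for over-expression of PRMT1, and for 3 libraries of control cells that received the plasmid pcDNA3.1, each for 48 h. PRMT1 is the main enzyme that places asymmetric dimethylation on arginines of histones and RNA-binding proteins. All libraries come from 1 cell line, and the labels do not say whether replicates came from separate cultures. The p-values thus reflect the spread among these 6 libraries only, and that spread may be technical. The level of PRMT1 itself was not assessed here. The deposited tables list small RNA classes, whereas the library protocol in the labels describes mRNA enrichment or removal of ribosomal RNA, so how the small RNA libraries were prepared is uncertain.

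Let-7 was discovered in Caenorhabditis elegans as a switch of larval development and is among the most conserved animal miRNAs. One arm of each hairpin, the guide, is loaded into Argonaute, and the other arm, the passenger, is mostly degraded. The guide pairs with messenger RNAs mainly through its seed, bases 2 to 8. Targets of let-7 include growth genes such as RAS, MYC and HMGA2, and the protein LIN28 blocks the maturation of let-7 precursors. In epithelial cells let-7 is abundant and is linked to the differentiated, slowly dividing state.

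The 9 mature sequences are shown because the seed, which sets the targets, is common to them, and because the few bases that differ decide how reads can be assigned to a name. They are RefSeq sequences on GRCh38.p14, written 5′ to 3′ with the seed in capitals.
hsa-let-7a-5p: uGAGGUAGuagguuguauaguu
hsa-let-7b-5p: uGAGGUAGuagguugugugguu
hsa-let-7c-5p: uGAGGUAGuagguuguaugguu
hsa-let-7d-5p: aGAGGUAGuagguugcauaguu
hsa-let-7e-5p: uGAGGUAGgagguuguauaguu
hsa-let-7f-5p: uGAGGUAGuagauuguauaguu
hsa-let-7g-5p: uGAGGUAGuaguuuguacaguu
hsa-let-7i-5p: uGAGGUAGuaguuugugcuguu
hsa-miR-98-5p: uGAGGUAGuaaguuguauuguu

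Each sequence is 22 bases long, and all 9 carry the seed GAGGUAG, so no length term enters when their levels are set side by side. The levels are those of reads and carry any bias of ligation and counting. Orders, shares and ratios of names are therefore those of read counts, not of molecules. The members differ at 8 positions (1, 9, 11, 12, 16, 17, 18 and 19, counted from the 5′ end) and are identical at the other 14. Against hsa-let-7a-5p, hsa-let-7c-5p differs by A19G, hsa-let-7e-5p by U9G and hsa-let-7f-5p by G12A, each a single base. hsa-let-7b-5p differs from hsa-let-7c-5p by 1 base as well, which makes 4 of the 36 pairs with 1 difference. A further 10 pairs have 2 differences, and the largest number in any pair is 6. hsa-let-7d-5p is the only member that starts with A (U1A), and it also carries U16C. The 4 substitutions of hsa-let-7i-5p against hsa-let-7a-5p are G12U, A17G, U18C and A19U, the most of any member. How reads that fit more than 1 name were divided is not given in the sources used here, so names 1 base apart are uncertain as separate measurements.

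Of 2370 mature names in the RefSeq table, 11 (0.464%) hold the seed GAGGUAG, and the 2 that are no members are hsa-miR-4458 and hsa-miR-4500. hsa-miR-4458 (aGAGGUAGguguggaagaa, chromosome 5) had 4, 0 and 2 counts in PRMT1 libraries 1 to 3, and 0 in each control library. hsa-miR-4500 (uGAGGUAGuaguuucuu, chromosome 13) had no row in any of the 6 libraries and was read as 0. Whether the reference used for counting held this name is not given. If it did, a count of 0 allows up to 0.183 to 0.26 CPM of known miRNA counts, which covers counting error only. hsa-miR-202-3p, which miRNA databases group with let-7 although its bases 2 to 8 differ in the last letter (aGAGGUAUagggcaugggaa), had 2, 1 and 0 counts in PRMT1 libraries and 1, 0 and 0 in control libraries. The reads counted under names with this seed therefore came almost wholly from the 9 members.

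The 9 guides come from 12 hairpins, since hsa-let-7a-5p is cut from 3 and hsa-let-7f-5p from 2. Positions are those of RefSeq on GRCh38.p14, and host genes those of GENCODE 29 on GRCh38, neither of which is the build of the submitters' processing notes. On chromosome 9, let-7a-1 (chr9:94175957-94176036), let-7f-1 (chr9:94176347-94176433) and let-7d (chr9:94178834-94178920) lie within introns of the long noncoding RNA AL158152.2, on its strand. Let-7a-3 (chr22:46112749-46112822) and let-7b (chr22:46113686-46113768) lie in exons of MIRLET7BHG, the noncoding host of both. Let-7f-2 (chrX:53557192-53557274) and miR-98 (chrX:53556223-53556341) lie 851 bases apart in introns of HUWE1, which encodes a ubiquitin ligase. Let-7g (chr3:52268278-52268361) is in an intron of WDR82, a subunit of histone methyltransferase complexes. Let-7i (chr12:62603686-62603769) is in an intron of the noncoding RNA AC048341.1. Another 3 hairpins sit beside miR-99, miR-100 or miR-125 hairpins. These are let-7a-2 (chr11:122146522-122146593) in an intron of MIR100HG, let-7c (chr21:16539828-16539911) in an intron of MIR99AHG and let-7e (chr19:51692786-51692864) in an intron of SPACA6 and opposite an exon of the antisense RNA SPACA6P-AS. Reads of hsa-let-7a-5p and hsa-let-7f-5p cannot be traced to one hairpin or another.

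Library totals ran from 23.95 M to 25.79 M counts, of which 11.54 M to 16.42 M were known miRNAs. Levels are given as CPM, counts per 1000000 known miRNA counts after TMM scaling, which sets a common level across libraries from the bulk of the miRNAs. Control libraries 2 and 3 stood on opposite sides of the others in the share of hsa-miR-21-5p. hsa-miR-21-5p took 66.04% of known miRNA counts in control library 2 and 49.4% in control library 3, against 53.2% to 59.1% in the others. The TMM factor was 0.761 in control library 2 and 1.11 in control library 3, against 0.986 to 1.10 in the others. That of control library 3 was thus close to the 1.10 of control library 1. In a chi-square comparison of counts over miRNAs, control library 3 lay at 1155 to 2689 per degree of freedom from every other library. Control library 2 lay at 548 to 816 from the PRMT1 libraries and 1257 from control library 1. Pairs without these 2 libraries lay at 322 to 635, a range that holds the 548 of control library 2 with PRMT1 library 2. All 7 epithelial markers listed were detected, at a summed 7999 to 8876 CPM in PRMT1 and 7746 to 10086 CPM in control libraries, almost all from hsa-miR-200a-3p, hsa-miR-200b-3p and hsa-miR-429. hsa-miR-205-5p and hsa-miR-203a-3p, markers of stratified epithelium, were at 2.84 to 8.78 CPM in PRMT1 and 2.65 to 6.09 CPM in control libraries. In PRMT1 libraries hsa-miR-429 was lower and hsa-miR-205-5p higher without overlap (edgeR adjusted p = 0.789 and 0.741), and the other epithelial names overlapped. Every muscle, liver, blood, endothelial and mesenchymal name listed was detected too, so detection alone does not set the epithelial list apart. Of the other lists, the 2 endothelial arms of miR-126 reached 1665 to 2293 CPM in PRMT1 and 1777 to 2071 CPM in control libraries. The 6 blood miRNAs were at 73.3 to 99.6 and 75.5 to 131 CPM, the 2 mesenchymal at 23.0 to 34.8 and 23.2 to 30.6 CPM, and the 3 muscle at 9.17 to 12.6 and 9.98 to 13.8 CPM, PRMT1 libraries given before control libraries. The liver marker hsa-miR-122-5p stayed under 1.5 CPM, and the sum of the 5 pluripotency miRNAs stayed under 0.2 CPM. Of these, hsa-miR-367-3p had no row of its own in any library and was read as 0.

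Together the 9 guides held a sizeable part of the known miRNA counts: they made up 10.5%, 9.28% and 9.475% of known miRNA counts in PRMT1 libraries 1 to 3, and 9.975%, 9.06% and 8.78% in control libraries 1 to 3. The means were 9.75% ± 0.659 in PRMT1 and 9.27% ± 0.625 in control libraries (SD, n = 3 each), a difference of 0.481 percentage points, and the groups overlapped. Without hsa-miR-21-5p in the denominator the shares were 23.2% ± 1.03 in PRMT1 and 21.8% ± 4.68 in control libraries. The wider control spread came from control library 2 at 26.7% and control library 3 at 17.3%, which lie on either side of all 3 PRMT1 libraries. On the CPM scale the summed family stood at 98597, 90832 and 96134 CPM in PRMT1 and 90743, 119050 and 78846 CPM in control libraries, with the same 2 control libraries at the extremes.

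The members differed over 100-fold in CPM, in an order of read counts that hardly varied between libraries. hsa-let-7i-5p and hsa-let-7a-5p led, between ranks 2 and 5 of all known miRNAs in every library. hsa-let-7i-5p stood at 28539, 25268 and 26169 CPM in PRMT1 libraries and at 24401, 34392 and 22382 CPM in control libraries. hsa-let-7a-5p stood at 26931, 23825 and 27036 CPM in PRMT1 libraries and at 25060, 31647 and 20755 CPM in control libraries. These neighbours did not differ beyond their spread: hsa-let-7i-5p was the higher of the pair in 4 of 6 libraries, with a ratio of 0.968 to 1.09. hsa-let-7f-5p had rank 3 in the family in every library, at 16076, 15208 and 16187 CPM in PRMT1 and 15264, 20694 and 13469 CPM in control libraries. Together the 3 leading members held 70.8% to 72.9% of the family counts.

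hsa-let-7b-5p, from the chromosome 22 pair, had rank 4 in every library, at 11244, 11176 and 11790 CPM in PRMT1 and 10104, 12311 and 8536 CPM in control libraries. hsa-let-7g-5p had rank 5 in every library, at 5080, 5572 and 5054 CPM in PRMT1 and 5323.5, 7553 and 5043 CPM in control libraries. hsa-miR-98-5p had rank 8, at 2458, 2106 and 2251 CPM in PRMT1 and 2095, 2879 and 1898.5 CPM in control libraries. In each of these members the 3 PRMT1 libraries lay inside the control range, and control libraries 2 and 3 gave the highest and lowest values. hsa-let-7c-5p came last by a wide margin, at 226, 191 and 261 CPM in PRMT1 and 195, 203 and 181 CPM in control libraries, between rank 112 and rank 132 of known miRNAs. It had 0.803 to 0.967 counts for each 100 counts of hsa-let-7a-5p in PRMT1 and 0.640 to 0.872 in control libraries, and it differs from that far more abundant name by A19G alone.

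**Figure D1:**
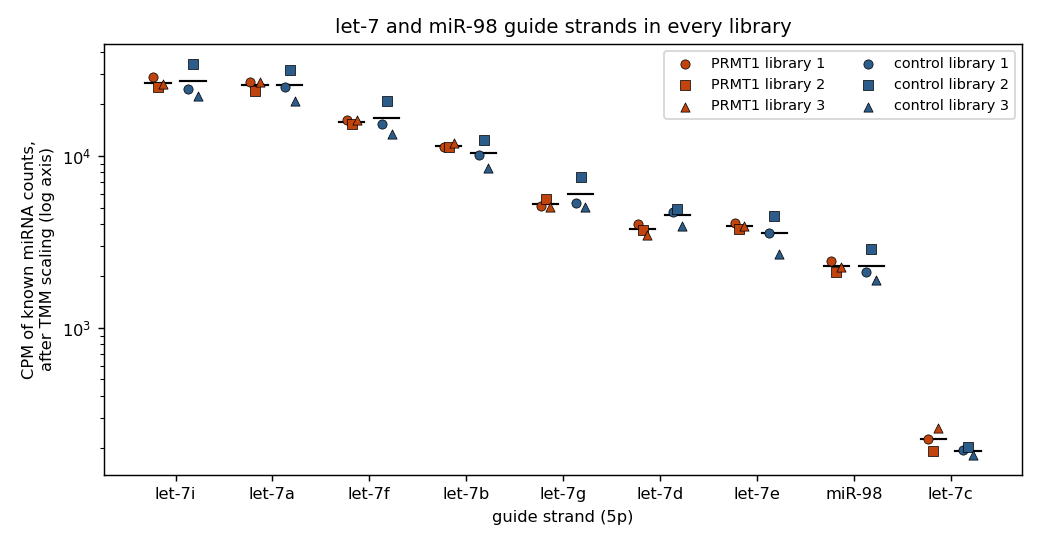
Level of each guide strand in CPM of known miRNA counts after TMM scaling (log axis), members ordered by overall mean, with 1 point per library and a bar at the mean of each group of 3. PRMT1 libraries lie between the lowest and highest control library for most members, and control library 2 (blue squares) is the highest point for 8 of the 9, hsa-let-7c-5p excepted.

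Ranks 6 and 7 of the family were held by different members in the groups. hsa-let-7d-5p stood at 4005.5, 3722 and 3476.5 CPM in PRMT1 and 4739, 4926 and 3904 CPM in control libraries. hsa-let-7e-5p, the member made beside miR-99b and miR-125a, stood at 4039, 3764 and 3908 CPM in PRMT1 and 3561, 4441 and 2677 CPM in control libraries. Counts of hsa-let-7d-5p per count of hsa-let-7e-5p were 0.992, 0.989 and 0.890 in PRMT1 libraries, where hsa-let-7e-5p was the higher in 3 of 3. In control libraries the ratios were 1.33, 1.11 and 1.46, and hsa-let-7d-5p was the higher in 3 of 3. The 2 sequences differ at 3 positions (A1U, U9G and C16U, from hsa-let-7d-5p to hsa-let-7e-5p), and the ratio does not depend on scaling between libraries. PRMT1 libraries 1 and 2 lay close to equal counts, and this comparison was chosen after the values were seen, so no test is given.

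No member passed the test between PRMT1 and control libraries across all known miRNAs. Of 668 miRNAs with enough counts, edgeR's quasi-likelihood test called 0 at a Benjamini-Hochberg adjusted p of 0.05 (0%), and 36 (5.39%) had an unadjusted p under 0.05. Among the 9 members, 0 were called and 0 had an unadjusted p under 0.05, with edgeR adjusted p-values from 0.769 to 0.991. DESeq2 called 3 of the 668 and limma-voom 0, and in either tool 0 of the calls were members. In CPM the groups overlapped for all 9 members, while they did not overlap for 68 of 668 miRNAs (10.2%), with PRMT1 lower in 4.79% and higher in 5.39%. Of the members, 4 had a fold change above 0 and 5 below, with a median log2 fold change of -0.01, beside 53.9% above 0 and a median of 0.04 over the 668. The split of the members moved with the scaling, with 7 above 0 when only library size was used and 3 with RLE or upper quartile scaling, and with the library left out, with 7 above 0 when control library 2 was dropped and 1 when control library 3 was.

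The intervals show which changes the 6 libraries leave room for. hsa-let-7a-5p averaged 25931 ± 1825 CPM in PRMT1 and 25821 ± 5486 CPM in control libraries (SD, n = 3 each), a log2 fold change of 0.01 with a 95% interval from -0.39 to 0.40. For hsa-let-7i-5p the means were 26659 ± 1689 and 27058 ± 6431 CPM in PRMT1 and control libraries, with a log2 fold change of -0.02 (interval -0.43 to 0.39). hsa-let-7f-5p had -0.06 (-0.46 to 0.35) and hsa-miR-98-5p -0.01 (-0.47 to 0.45). The lowest value was that of hsa-let-7d-5p, at 3735 ± 265 CPM in PRMT1 and 4523 ± 544 CPM in control libraries, a log2 fold change of -0.28 (interval -0.66 to 0.10, edgeR adjusted p = 0.769). hsa-let-7g-5p followed at -0.19 (-0.62 to 0.24). On the other side were hsa-let-7b-5p at 0.14 (-0.24 to 0.53), hsa-let-7e-5p at 0.13 (-0.33 to 0.59) and hsa-let-7c-5p at 0.23 (-0.29 to 0.75). For all 9 members the interval leaves out a change of 1 on the log2 scale in either direction, relative to the bulk of the miRNAs. A change common to the miRNAs is removed by TMM scaling and is not covered. Counts behind these values ran from 2325 to 438617 per member and library, so counting error was at most 2.07% of a value. The median replicate SD of the members was 0.228 on the log2 CPM scale, close to the 0.229 of the 62 miRNAs of at least 1000 CPM, and far above the counting error.

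**Figure D2:**
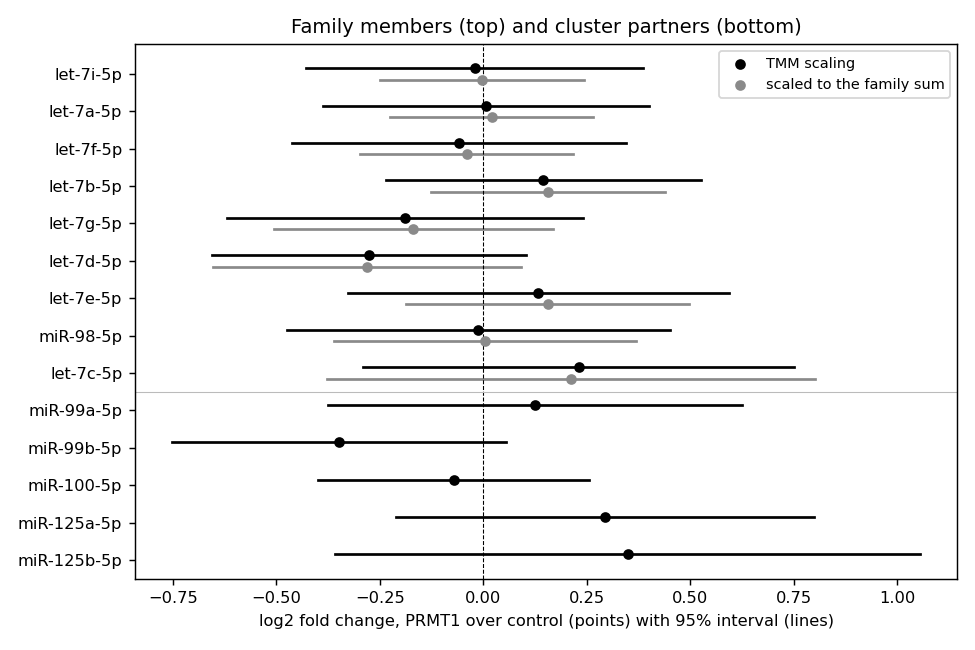
Log2 fold change of PRMT1 over control (points) with its 95% interval (lines) for the 9 members and, under the grey line, 5 miRNAs from the same clusters. Black marks are from TMM scaling and grey marks from scaling to the summed family. Every interval spans 0. On the family scale the interval of each member narrows, except that of hsa-let-7c-5p, which widens from -0.29 to 0.75 into -0.38 to 0.80. hsa-let-7i-5p, hsa-let-7a-5p and hsa-let-7f-5p hold most of the counts that set this scale.

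For most members the share of the family was far steadier between replicates than the level. The median replicate SD of a member was 0.058 on the log2 scale as a share of the family, against 0.228 as CPM. Part of this follows from the share itself, since a factor common to a library cancels in it. hsa-let-7c-5p went the other way, with a replicate SD of 0.208 as a share and 0.170 as CPM. That of hsa-let-7d-5p hardly changed, at 0.143 and 0.146. hsa-let-7f-5p held 16.3% to 17.4% of family counts over the 6 libraries, hsa-miR-98-5p 2.31% to 2.49%, hsa-let-7i-5p 26.9% to 28.9% and hsa-let-7a-5p 26.2% to 28.1%. For these 4 the highest share was at most 1.08 times the lowest. hsa-let-7c-5p, at 0.170% to 0.272%, varied the most, and hsa-let-7d-5p, at 3.62% to 5.22%, came next. Over the 6 libraries, log2 CPM of hsa-let-7f-5p and hsa-miR-98-5p had a correlation of 0.984 and 0.980 with the sum of the other 8 members, whereas that of hsa-let-7d-5p was 0.455 and that of hsa-let-7c-5p 0.356. These correlations describe 6 points that share a scaling factor per library.

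The share of family counts separated the groups for 3 of 9 members, by small amounts. Taken per family count in the same way, 53 of 668 miRNAs (7.93%) did not overlap, though the members themselves set that scale. The 9 shares of a library add up to a whole, so a higher share of any member lowers the others. The separations are thus not separate observations. hsa-let-7b-5p held 11.4%, 12.3% and 12.3% in PRMT1 libraries 1 to 3 and 11.1%, 10.3% and 10.8% in control libraries 1 to 3, so that each PRMT1 library lay above each control library. hsa-let-7e-5p held 4.10%, 4.14% and 4.065% in PRMT1 and 3.925%, 3.73% and 3.40% in control libraries, again without overlap. The PRMT1 values of hsa-let-7e-5p sat within 0.1 percentage points of each other, while the control values were spread more widely. hsa-let-7d-5p held 4.06%, 4.10% and 3.62% in PRMT1 and 5.22%, 4.14% and 4.95% in control libraries, a gap between groups of under 0.05 percentage points at its narrowest. Mean differences of PRMT1 minus control were 1.22, 0.418 and -0.845 percentage points for hsa-let-7b-5p, hsa-let-7e-5p and hsa-let-7d-5p. Leaving a library out can only add members that do not overlap, and the count was 5 without control library 1 and 3 or 4 without any other library. The members added were hsa-let-7f-5p and hsa-let-7g-5p.

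Tested as change relative to the family, none of these passed. With every library scaled to its summed family counts, edgeR called 0 of 668 miRNAs (0%), with 24 (3.59%) at an unadjusted p under 0.05. Log2 fold changes on that scale were 0.16 (SE 0.12, edgeR adjusted p = 0.908) for hsa-let-7b-5p, 0.16 (SE 0.15, adjusted p = 0.915) for hsa-let-7e-5p and -0.28 (SE 0.16, adjusted p = 0.908) for hsa-let-7d-5p, and 0 members had an unadjusted p under 0.05. On the same scale the groups did not overlap for 53 of 668 miRNAs (7.93%), with PRMT1 higher in 5.54% and lower in 2.4%. That figure is not a like-for-like background, since the members themselves set the scale. Ratios between 2 members, which need no scale, failed to overlap in 9 of 36 pairs, beside 11% of the 12403 pairs among 158 miRNAs of at least 100 CPM. hsa-let-7b-5p or hsa-let-7e-5p was in 8 of these 9 pairs, and hsa-let-7i-5p and hsa-miR-98-5p were in 0, so the pairs are not separate observations. This count of 9 became 20 pairs when PRMT1 library 2 was dropped, 16 when control library 1 was, and 9 to 13 for each of the others. It too can only grow when a library is dropped, and the 11% was not recomputed. Counts of hsa-let-7b-5p per count of hsa-let-7g-5p, for example, were 2.21, 2.01 and 2.33 in PRMT1 and 1.90, 1.63 and 1.69 in control libraries.

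**Figure D3:**
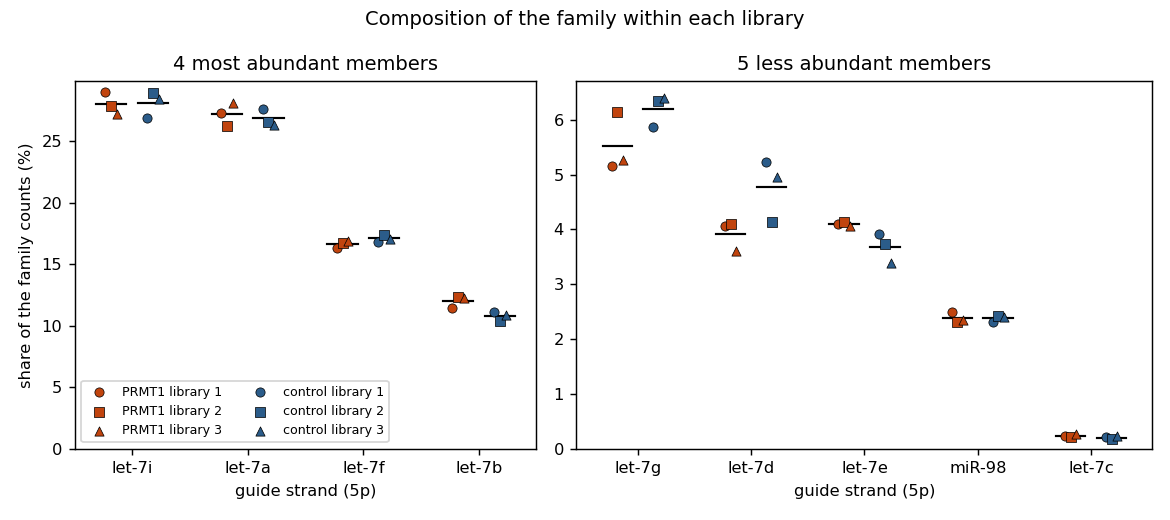
Share of the summed family counts held by each guide strand in each library, in percent, with a bar at the mean of each group of 3 and separate axes for the 4 more and 5 less abundant members. PRMT1 libraries lie above control libraries for let-7b and let-7e and below them for let-7d, and the other members overlap. For let-7g only PRMT1 library 2, at 6.135%, reached the control range. For let-7f only PRMT1 library 3, at 16.84%, lay above the lowest control library, at 16.82%.

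Names that differ by 1 base could exchange reads, so they were also summed. hsa-let-7a-5p, hsa-let-7b-5p, hsa-let-7c-5p, hsa-let-7e-5p and hsa-let-7f-5p join into 1 group in this way, and its log2 fold change was -0.02 (SE 0.16). hsa-let-7d-5p, hsa-let-7g-5p, hsa-let-7i-5p and hsa-miR-98-5p are at least 2 bases from every other member and stay single. Of the 3 members whose shares separated the groups, hsa-let-7d-5p lies outside that group and hsa-let-7b-5p and hsa-let-7e-5p inside it. hsa-let-7d-5p is 2 bases from hsa-let-7a-5p (U1A and U16C). The summing does not cover exchange of reads between names 2 bases apart, which was not tested.

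The miRNAs cut from the same primary transcripts as let-7a-2, let-7c and let-7e were compared as neighbours. MiR-99 and miR-100 restrain mTOR signalling, and miR-125 is the relative of lin-4, the other larval switch of Caenorhabditis elegans. Of the 5 partners 0 were called, 3 lay above 0 and 2 below, with a median log2 fold change of 0.12. Beside hsa-let-7e-5p at 0.13, hsa-miR-99b-5p of the same 3-hairpin cluster had -0.35 (interval -0.75 to 0.05) and hsa-miR-125a-5p 0.29 (-0.21 to 0.80). hsa-miR-99b-5p stood at 4430, 4937 and 5157 CPM in PRMT1 and 6101, 5119 and 7276 CPM in control libraries, while hsa-miR-125a-5p stood at 2155, 3342 and 2179 CPM in PRMT1 and 2048, 2386 and 1827 CPM in control libraries. The 3 names of this cluster thus did not share a direction, and the value of hsa-miR-125a-5p was 0.02 without PRMT1 library 2. Levels within a cluster were also unequal: hsa-miR-99a-5p, 659 bases from let-7c, stood at 621 ± 125 CPM in PRMT1 and 570 ± 27.8 CPM in control libraries, against 226 ± 35.1 and 193 ± 10.9 CPM for hsa-let-7c-5p. hsa-miR-100-5p stood at 16158 ± 1640 CPM in PRMT1 and 16986 ± 948 CPM in control libraries (log2 -0.07), and hsa-miR-125b-5p at 816 ± 352 and 641 ± 81.2 CPM (log2 0.35, and -0.04 without PRMT1 library 2). The sequence of hsa-miR-125b-5p is listed on chromosomes 11 and 21, so its reads cannot be traced to one locus or the other. The log2 fold change of hsa-miR-99a-5p was 0.12, and -0.06 without PRMT1 library 3.

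Among 142 other miRNAs of at least 100 CPM, those most like the summed family in log2 CPM over the 6 libraries were hsa-miR-19b-3p (r = 0.988), hsa-miR-18a-5p (r = 0.916) and hsa-miR-582-5p (r = 0.904). These 142 leave out the members, their cluster partners, the passenger names and hsa-miR-21-5p, so hsa-miR-21-5p was not ranked. It too was highest in control library 2, at 867950 CPM, and lowest in control library 3, at 443370 CPM. hsa-miR-19b-3p stood at 984, 901 and 1015 CPM in PRMT1 and 850, 1404 and 727 CPM in control libraries, with control library 2 highest and control library 3 lowest, as in the family. The least like were hsa-miR-3615 (r = -0.949), hsa-miR-92b-3p (r = -0.912) and hsa-miR-4488 (r = -0.864). hsa-miR-92b-3p stood at 1572, 2347 and 2114 CPM in PRMT1 and 1887, 1354 and 2792 CPM in control libraries, with the same 2 control libraries at the opposite ends. These correlations again describe 6 points, and they were not recomputed without those 2 libraries.

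Guides far outnumbered passengers in every library. All passenger names together had 9.04, 7.39 and 7.44 counts per 1000 guide counts in PRMT1 and 5.24, 3.48 and 7.76 in control libraries, which overlap. The let-7d hairpin stood apart, and is shown with its guide (left) and passenger (right) arms in capitals, as RefSeq gives it on GRCh38.p14.
let-7d hairpin: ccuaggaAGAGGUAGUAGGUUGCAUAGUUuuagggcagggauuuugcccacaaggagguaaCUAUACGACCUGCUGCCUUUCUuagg
It had 81.35, 95.15 and 77.3 passenger counts per 1000 guide counts in PRMT1 and 29.9, 23.9 and 61.9 in control libraries, without overlap, and the next highest, let-7e, had 19.2 ± 1.31 in PRMT1 and 18.3 ± 5.18 in control libraries. The ratio did not overlap in 19 of 168 hairpins with both arms tested (11.3%), with PRMT1 higher in 8.33%, and let-7d was the only one of the 7 let-7 and miR-98 pairs among them. hsa-let-7d-3p was at 316 ± 43.5 CPM in PRMT1 and 167 ± 65.8 CPM in control libraries (log2 0.92, SE 0.31, edgeR adjusted p = 0.741), beside the log2 value of -0.28 of hsa-let-7d-5p, and neither arm passed the threshold. For let-7i the ratio was 9.76, 1.015 and 3.85 in PRMT1 and 1.215, 0.726 and 1.825 in control libraries, so that PRMT1 library 1 was high and PRMT1 library 2 lay inside the control range. Without PRMT1 library 1 the difference for let-7i was 1.18 counts per 1000, against 3.62 with it.

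**Figure D4:**
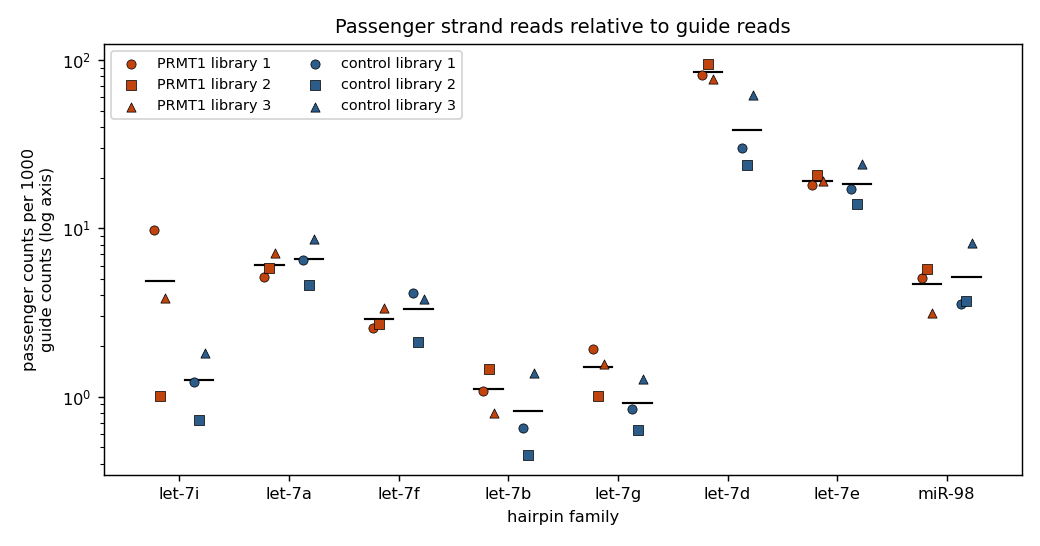
Passenger counts per 1000 guide counts of each hairpin family in each library (log axis), with a bar at the mean of each group of 3, without let-7c, whose passenger had 1 to 6 counts. PRMT1 libraries lie above control libraries for let-7d, and PRMT1 library 1 is far above the others for let-7i.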

How the data were processed

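Each of the 6 libraries has its own table. Per the series' design text, BGI sequenced, filtered and processed the reads. Per the submitters' processing notes, which give no roles, the tools included HISAT, Bowtie2 and RSEM and the build was GRCh37.p13. The counter and its handling of reads with several matches or of strand are not given in the sources used here. Counts, as deposited, are whole numbers per feature. TPM values deposited by the authors equalled counts per 1000000 library counts to within 0.005 and served only that check. Absent rows were read as 0.

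Known mature names were filtered with filterByExpr, scaled with TMM and tested with edgeR 4.0.16 (robust quasi-likelihood, Benjamini-Hochberg over 668 names, threshold 0.05) in R 4.3.3. SEs are the fold change over the root of F, and 95% intervals use the moderated degrees of freedom. DESeq2 1.42.0 and limma 3.58.1 were alternatives. Libraries were not copies, with at least 321.8 chi-square per degree of freedom in any pair.

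The members and lists were chosen with earlier results of these data known. All members, partners, passengers and marker lists were named. With them were named the 3 most and 3 least like of the 142 other miRNAs of at least 100 CPM. The summing of names 1 base apart, pair ratios, order and arm ratios were added after the values were seen.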

Additional observations from a re-analysis of the deposited data

How the results depend on the processing

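Calls of members stayed at 0 of 9 under every alternative tried, but several signs turned. The log2 fold change of hsa-let-7a-5p was -0.043 with RLE scaling or DESeq2, -0.052 with upper quartile scaling, -0.0062 without a filter and -0.017 without hsa-miR-21-5p. With library size only, hsa-let-7f-5p was at 0.033, hsa-let-7i-5p at 0.074 and hsa-miR-98-5p at 0.081. With limma-voom hsa-let-7i-5p was at 0.0042 and hsa-miR-98-5p at 0.011. Scaled to the family, hsa-miR-98-5p was at 0.0035. With names 1 base apart summed, hsa-let-7a-5p, hsa-let-7b-5p, hsa-let-7c-5p and hsa-let-7e-5p shared a value of -0.016. The count of called miRNAs, 0, was 9 without a filter and 3 with DESeq2. The family share differed by 1.43 percentage points without hsa-miR-21-5p in the denominator, and the share of hsa-let-7b-5p by 1.69 when hsa-let-7i-5p was left out of the family. Both settings used a smaller denominator, which raises every share. These differences are thus not on the scale of the 0.481 and 1.22 points found with the full denominators. The cause of the turned signs was not tested.

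With the replicate number as a block, hsa-let-7i-5p was at 0.0032, hsa-miR-98-5p at 0.0092 and 1 miRNA was called, no member. Same-numbered libraries deviated with correlations of -0.143, 0.177 and -0.149, within the -0.127 to 0.259 of other pairs or just below them, so the numbers were not taken to pair libraries, and the block changed no call of a member.

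When single libraries were left out, the count of called miRNAs was 0 to 1 and the median of the members -0.18 to 0.17. Log2 fold changes ran from -0.18 to 0.16 for hsa-let-7a-5p, -0.024 to 0.27 for hsa-let-7b-5p, 0.10 to 0.30 for hsa-let-7c-5p, -0.42 to -0.23 for hsa-let-7d-5p, -0.084 to 0.30 for hsa-let-7e-5p, -0.23 to 0.12 for hsa-let-7f-5p, -0.34 to -0.004 for hsa-let-7g-5p, -0.19 to 0.17 for hsa-let-7i-5p and -0.18 to 0.17 for hsa-miR-98-5p. Among the partners they ran from -0.058 to 0.20 for hsa-miR-99a-5p and -0.042 to 0.61 for hsa-miR-125b-5p. For every member but hsa-let-7c-5p the lowest value came when control library 3 was dropped and the highest when control library 2 was. The family share differed by 0.105 to 0.833 percentage points, lowest without PRMT1 library 1. The passenger ratio of let-7d differed by 38.7 to 57.7 counts per 1000.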

Other observations

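The row of the Rfam family of let-7 precursors held few counts. They numbered 2071, 1641 and 1652 in PRMT1 libraries 1 to 3 and 1589, 2686 and 1130 in control libraries 1 to 3. Per 1000 guide counts that was 1.43 ± 0.0598 in PRMT1 and 1.40 ± 0.359 in control libraries (SD, n = 3 each), with control library 2 highest at 1.805 and control library 3 lowest at 1.115. A separate row for hairpins of the family held 1 count, in PRMT1 library 2.

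Of the 10 passenger names tested, 4 did not overlap between groups in CPM, beside 10.2% of all miRNAs tested; hsa-let-7d-3p is one of them. hsa-let-7f-2-3p lay lower in PRMT1 libraries without overlap, at 21.8 ± 3.01 CPM in PRMT1 and 34.7 ± 11.4 CPM in control libraries (log2 -0.67, SE 0.29, edgeR adjusted p = 0.741). hsa-let-7f-1-3p, from the other hairpin of the same guide, had a log2 fold change of 0.42 (SE 0.28). hsa-let-7e-3p lay higher without overlap, at 74.9 ± 2.46 CPM in PRMT1 and 62.2 ± 1.78 CPM in control libraries (log2 0.27, SE 0.21), as did hsa-let-7a-2-3p at 15.2 ± 0.757 and 12.3 ± 0.335 CPM (log2 0.31, SE 0.24), and neither passed the threshold.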
